A study of Mus musculus with 8 samples.

Results

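Horizontal basal cells are the reserve stem cells of the olfactory epithelium, and 10 genes that mark them at rest were followed through lighter and heavier polysomes. The genes are the keratins Krt5, Krt14, Krt15 and Krt17, the transcription factor Trp63, the growth factor receptor Egfr, the adhesion genes Itgb4, Bcam and Icam1, and Cav1. They were chosen by symbol, as known markers of the resting cell, from a table of 21765 genes. The rule used no measured value, but the choice was made with earlier results of these data known. All 10 were among the 16097 genes tested.

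Horizontal basal cells lie flat on the basal lamina beneath the neurons, sustentacular cells and globose basal cells. They divide rarely in undamaged tissue and can rebuild every epithelial lineage after severe injury. Trp63 encodes p63, the factor that holds them at rest, and its loss releases them into the cell cycle. Their keratin filaments are anchored to the lamina through hemidesmosomes that hold integrin β4. A polysome is an mRNA with several ribosomes on it, and a sucrose gradient separates polysomes by ribosome number, so heavier polysomes lie deeper.

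RNA was sequenced from polysomes of whole mouse main olfactory epithelium, in 8 libraries. Tissue was put into 100 µg/mL cycloheximide, which halts elongating ribosomes, when it was dissected. From about 42 fractions of 350 µL, 50 µL each of fractions 27 to 34 made the early (lighter) pool, and 50 µL each of fractions 35 to 42 made the late (heavier) pool. Polysome RNA alone was measured, so a level depends on how much mRNA a gene has as well as on its ribosomes. Wild-type (WT) mice were Mex3a flox/flox or Mex3a flox/+ without Cre, and conditional knockout (cKO) mice were Mex3a flox/flox with Cre; Mex3a encodes an RNA-binding protein. All groups thus carried at least 1 floxed Mex3a allele, and no label gives the age or sex of the mice or whether tissue was pooled. Both pools of both genotypes had 2 libraries, which makes 4 groups, and early and late libraries of the same number came from 1 lysate by their library names. No label says that the 2 lysates of a genotype were separate animals, so p-values measure the spread between these libraries. The series' own design text describes sorted cells with an RNA-editing transgene, which is not what the sample labels describe, and the sample labels were followed.

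Labels disagree for 1 library: its title makes it WT early replicate 2, while its genotype entry is that of the cKO mice, and it was kept as WT. In transcripts per 1000000 (TPM), it held 116 of the targeted gene Mex3a, beside 97.4 in the other early library of that genotype and 93.2 and 95.6 in its late ones. In cKO mice Mex3a was at 13.9 and 19.8 TPM early and at 11.1 and 13.8 TPM late. The changes and calls that rest on this library are given with and without it; the ranks of levels, the counts of libraries that do not overlap and the ratios include it. Whole reads inferred from the TPM steps summed to between 7776792 in cKO late replicate 2 and 12771079 in WT late replicate 2. They placed from 29 reads (Krt17 in WT early replicate 2) to 649 reads (Bcam in WT late replicate 2) behind each value of the 10 genes. The tissue is bulk, so fewer horizontal basal cells and less RNA per cell cannot be told apart.

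The sequence around the start codon is where scanning ribosomes begin, and it is shown because the readout is ribosome loading. Each line holds 22 bases of the mRNA strand of the principal GENCODE M21 transcript (GRCm38), 12 before the start codon and 10 from it on. Capitals mark the base at -3, the start codon ATG and the base at +4, counting A of ATG as +1.
Krt5: ccaggaaccAtcATGTctcgcc
Krt14: tctctcaaaGccATGGccacct
Krt15: ggctgcctgAccATGGccacca
Krt17: cccgctgccAccATGAccacca
Trp63: ctcactgctAacATGTtgtacc
Egfr: tcccggtcaGagATGCgaccct
Itgb4: aggaggaggAggATGGcagggc
Bcam: actgcagggAacATGGaacccc
Icam1: cctggccctGcaATGGcttcaa
Cav1: ccacgcgccAgcATGTctgggg
A purine stood at -3 in 10 of 10 genes, against 85.0% of 19429 mouse genes with such a transcript. G followed the start codon in 5 of 10 (Krt14, Krt15, Itgb4, Bcam and Icam1), against 49.8% of all. Itgb4 had 1 upstream ATG in its leader and the other 9 had 0. These matches describe the sequences only.

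All 10 genes were detected in each of the 8 libraries, at low to moderate levels. TPM is a level per transcript length, so the genes can be ranked within a pool. In early polysomes Bcam led at 35.4 ± 3.57 TPM (SD, n = 4 libraries of both genotypes), and it did not overlap with Cav1, next at 22.1 ± 1.72 TPM. Below these came Krt14 at 18.5, Krt5 at 18.4, Krt15 at 12, Egfr at 10.6, Trp63 at 7.58, Itgb4 at 6.31, Krt17 at 5.29 and Icam1 at 4.85 TPM, and each of these overlapped in range with the next. The order differed in late polysomes, where Bcam stood at 63.8 ± 4.64 TPM, Krt5 at 39.6 ± 3.43, Krt15 at 29.5 ± 6.48 and Krt14 at 22.3 ± 2.67 (SD, n = 4). They were followed by Krt17 at 16.8, Egfr at 15.8, Trp63 at 14.3, Cav1 at 13.8, Itgb4 at 11.9 and Icam1 at 10.9 TPM. Gaps without overlap lay between Bcam and Krt5, between Krt15 and Krt14, and between Krt14 and Krt17. Cav1 was thus the 2nd highest of the 10 in early polysomes, and the 8th in late ones.

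**Figure D1:**
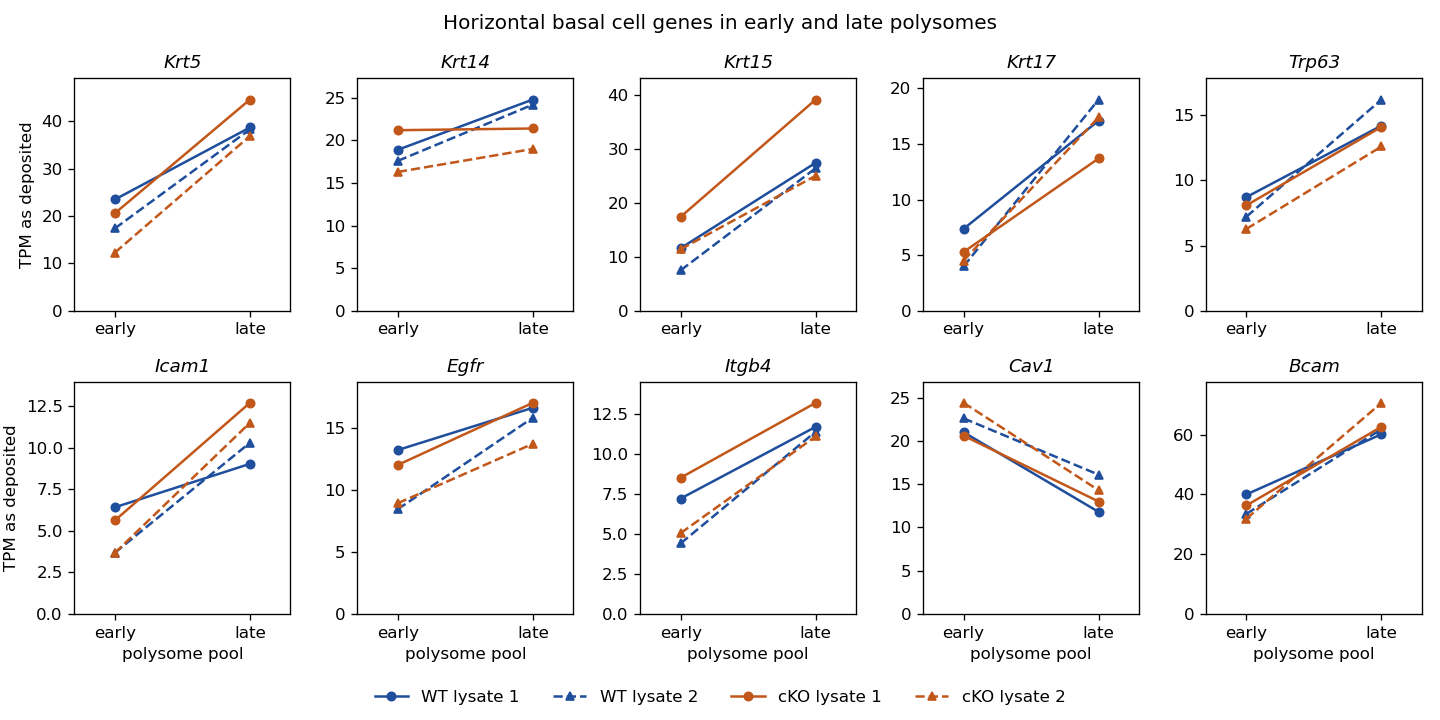
Deposited TPM (vertical axis, a separate scale from 0 for each gene) in early and late polysome pools (horizontal axis); lines join the libraries of 1 lysate, blue for WT and orange for cKO, solid for lysate 1 and dashed for lysate 2. On this unscaled measure lines slope up in 4 of 4 lysates for 9 genes, least for Krt14 (from 21.2 to 21.4 TPM in cKO lysate 1), and down in 4 of 4 for Cav1.

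Late polysomes were compared with early polysomes first, which asks how the share of each mRNA differs between the pools. Of the 10 genes, 8 were higher in late polysomes on the average of both genotypes, 1 (Cav1) was lower, and Krt14 did not pass the test (limma on log2(scaled TPM + 1), Benjamini-Hochberg adjusted p under 0.05 over 16097 genes). The background was high, with 34.3% of all genes higher and 34.6% lower. The median change of the 10 genes was 0.74 on the log2 scale, against -0.011 for all genes tested. Scaling by median ratios holds the all-gene median near 0 in every comparison. A rise or fall is thus relative to the other mRNAs of a pool, not an absolute amount. After scaling, 7 genes stood higher in all 4 late libraries than in any early one (31.5% of all genes did) and 1 stood lower (30.9%). This scale adds 1 to each value and so understates the changes of low genes. Without WT early replicate 2 the average changes were 0.88 for Krt5, 1.01 for Krt15, 1.23 for Krt17, 0.67 for Trp63, 0.60 for Itgb4, 0.66 for Bcam, 0.78 for Icam1 and -0.73 for Cav1, all still called, and 0.12 for Krt14 and 0.29 for Egfr, not called.

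Krt5 and Krt14 are the type II and type I partners of the basal keratin filament. Krt5 (chr15:101707070-101712898, minus strand) was at 23.5 and 17.4 TPM early and 38.7 and 38.3 late in WT, and at 20.6 and 12.3 early and 44.6 and 36.9 late in cKO. Every late library was above every early one. The difference, late minus early, was 0.98 on the log2 scale (SE 0.16, adjusted p = 0.000699), a 1.98-fold rise. Krt14 (chr11:100203162-100207548, minus strand) was at 18.9 and 17.6 TPM early and 24.8 and 24.2 late in WT, and at 21.2 and 16.3 early and 21.4 and 19 late in cKO. Its WT libraries stood apart by pool and its cKO libraries overlapped. The difference of 0.15 did not pass the test (95% interval -0.081 to 0.38, adjusted p = 0.216). With TPM as deposited, without scaling, it was 0.26 with an adjusted p of 0.0469.

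Krt15, a type I keratin of resting basal stem cells in several epithelia, lies near Krt14 at chr11:100131758-100135928 on the minus strand. It was at 11.6 and 7.5 TPM early and 27.4 and 26.4 late in WT, and at 17.4 and 11.4 early and 39.1 and 25 late in cKO. All late libraries were above all early ones, and replicates differed most in cKO. Krt15 rose by 1.15 (SE 0.19, adjusted p = 0.000785), or 2.22-fold. Krt17 (chr11:100256217-100261029, minus strand) is a type I keratin also known from wounded and activated epithelia. Krt17 was at 7.37 and 4 TPM early and 17.1 and 19 late in WT, and at 5.29 and 4.52 early and 13.7 and 17.4 late in cKO. The pools did not overlap, and the rise of 1.41 (SE 0.17, adjusted p = 0.000114), or 2.67-fold, was the largest change of the 10 genes. Keratins share sequence: 14.4% of the 50-base words of the Krt14 transcript also occur in Krt16 or Krt17, 8.52% of those of Krt5 in Krt6a, Gm5478 or Krt6b, and 3.99% of those of Krt17 in other genes. How the authors treated such reads is not given in the sources used here, so these 3 keratin levels are uncertain to that extent.

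Trp63 (chr16:25683763-25892102, plus strand), the regulator of the resting state, was at 8.72 and 7.22 TPM early and 14.2 and 16.2 late in WT, and at 8.09 and 6.28 early and 14.1 and 12.6 late in cKO. Late and early libraries did not overlap. Trp63 rose by 0.73 (SE 0.12, adjusted p = 0.000596), a 1.66-fold difference. Egfr (chr11:16752203-16918158, plus strand), the receptor for epidermal growth factor and its relatives, was at 13.2 and 8.44 TPM early and 16.6 and 15.8 late in WT, and at 12 and 8.92 early and 17 and 13.7 late in cKO. After scaling, the highest early library (13.4) was above the lowest late one (13). Its rise of 0.44 (SE 0.15, adjusted p = 0.0331), or 1.35-fold, was the smallest that passed. The call was lost without WT early replicate 2 (0.29, adjusted p = 0.114), without WT late replicate 1 (0.0867) or 2 (0.0655), without cKO early replicate 2 (0.113) or cKO late replicate 1 (0.103), and with no filter on low values (0.0603).

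The adhesion genes rose as well. Itgb4 (chr11:115974709-116008412, plus strand) encodes the integrin β4 chain of the hemidesmosome. It was at 7.22 and 4.42 TPM early and 11.7 and 11.4 late in WT, and at 8.52 and 5.06 early and 13.2 and 11.1 late in cKO. The pools did not overlap, and Itgb4 rose by 0.75 (SE 0.18, adjusted p = 0.00602), or 1.68-fold. Bcam (chr7:19756131-19771016, minus strand), a cell surface receptor for laminin α5, was at 40 and 33.5 TPM early and 60.1 and 61.8 late in WT, and at 36.3 and 31.9 early and 62.6 and 70.6 late in cKO. Its early and late libraries lay far apart and its replicates close together. The rise of 0.72 (SE 0.08, adjusted p = 8.73e-05), or 1.65-fold, had the smallest standard error of the 10 genes. Icam1 (chr9:21015985-21028817, plus strand), an adhesion molecule bound by leukocyte integrins and used to sort horizontal basal cells, was at 6.42 and 3.69 TPM early and 9.03 and 10.3 late in WT, and at 5.63 and 3.68 early and 12.7 and 11.5 late in cKO. No early library reached a late one. Icam1 rose by 0.94 (SE 0.18, adjusted p = 0.00143), or 1.92-fold.

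Cav1 (chr6:17306335-17341452, plus strand) encodes caveolin 1, the membrane protein that shapes caveolae, and moved the other way. It was at 21 and 22.6 TPM early and 11.8 and 16.1 late in WT, and at 20.6 and 24.4 early and 13 and 14.3 late in cKO. Every late library was below every early one. Cav1 fell by 0.76 on the log2 scale (SE 0.11, adjusted p = 0.000421), to 0.591 of its early level. Of the 10 loci, 7 overlap a gene on the opposite strand in GENCODE M21 (Krt5, Trp63, Icam1, Egfr, Itgb4, Cav1 and Bcam). The library kit keeps strand, but the strand setting of the counting is not given in the sources used here.

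**Figure D2:**
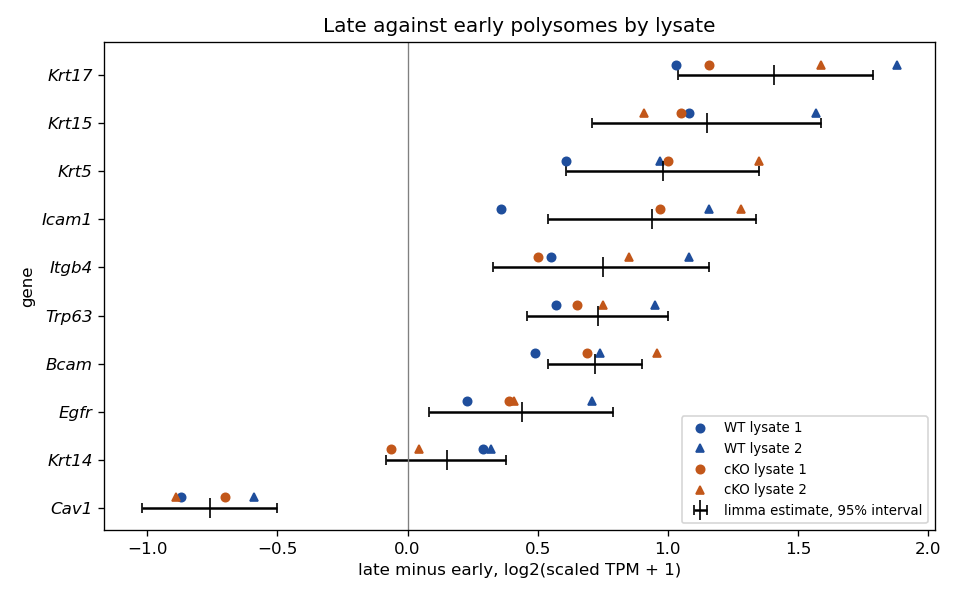
Late minus early change on the log2(scaled TPM + 1) scale (horizontal axis) for each gene, with 1 point per lysate (blue WT, orange cKO; circles lysate 1, triangles lysate 2) and the limma estimate with its 95% interval in black. Krt17 lies highest at 1.41 and Cav1 lowest at -0.76, and the interval of Krt14 crosses 0.

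Within genotypes the picture was close to the average. In WT, 7 of 10 genes were higher in late polysomes (27.1% of all genes) and Cav1 was lower (27.7%). Krt14 (0.30, adjusted p = 0.099) and Egfr (0.47, adjusted p = 0.1) did not pass. Without WT early replicate 2 the calls in WT fell from 8 to 5 of 10, with Krt5 at 0.59 (adjusted p = 0.13), Icam1 at 0.43 (0.211) and Itgb4 at 0.52 (0.185). These 3 calls were also lost without WT late replicate 1 (0.0739, 0.0739 and 0.0988) and without WT late replicate 2 (0.0703, 0.134 and 0.0882). In cKO, 6 of 10 were higher (28.9%) and Cav1 was lower (29.2%). Krt14 was at -0.0095 (adjusted p = 0.96), Egfr at 0.40 (0.147), and Itgb4 at 0.68, just outside the threshold (0.05003). Krt15 was not called in cKO without cKO early replicate 2 (0.71, adjusted p = 0.104) or cKO late replicate 1 (0.64, 0.0937), nor was Trp63 without cKO early replicate 2 (0.55, 0.0526). With the lysate as a block, Egfr passed in WT (adjusted p = 0.0463) and Itgb4 in cKO (0.0241). The median change of the 10 genes was 0.76 in each genotype.

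The size of the change differed between lysates more than its direction did. The 8 genes called higher rose in 4 of 4 lysates, Cav1 was lower in 4 of 4, and Krt14 was at 0.29 and 0.32 in the WT lysates and at -0.065 and 0.046 in the cKO lysates. Krt17 rose by 1.03 and 1.88 in WT lysates 1 and 2 and by 1.16 and 1.59 in cKO lysates 1 and 2. Icam1 ranged from 0.36 in WT lysate 1 to 1.28 in cKO lysate 2. Krt15 alone among the keratins had its smallest change, 0.91, in cKO lysate 2. The median of the 10 genes was 0.52 and 0.96 in the WT lysates and 0.67 and 0.88 in the cKO lysates. Medians of all genes, held near 0 by the scaling, were between -0.0033 and 0.00092. WT lysate 2 exceeded WT lysate 1 for 10 of 10 genes, against 50.3% of all genes, and cKO lysate 2 exceeded cKO lysate 1 for 8 of 10, against 51.9%. In early polysomes replicate 2 was lower than replicate 1 for 9 of 10 genes in WT (median -0.47, with 49.9% of all genes lower) and for 9 of 10 in cKO (median -0.34, 52.5%). In late polysomes it was lower for 5 of 10 in WT (median -0.006, 52.4%) and for 7 of 10 in cKO (median -0.2, 52.9%).

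Ratios between keratins were compared within each library. The ratio of Krt5 to Krt14 TPM was 1.24 and 0.991 early and 1.56 and 1.59 late in WT, and 0.976 and 0.752 early and 2.09 and 1.94 late in cKO. It was higher in late polysomes in 4 of 4 lysates. An exact two-sided permutation test over lysates gave p = 0.125, the smallest p that 4 pairs allow (adjusted p = 0.1875 over 3 ratios), so this design could not pass the threshold. The ratio of Krt15 to Krt14 was likewise higher in 4 of 4 lysates, from 0.616 and 0.427 to 1.1 and 1.09 in WT and from 0.821 and 0.697 to 1.83 and 1.32 in cKO, with the same exact permutation p of 0.125. Krt5 to Krt15 was higher in late polysomes in 1 of 4 lysates (exact permutation p = 0.375), and its ratios ran from 1.08 to 2.32.

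Coding length sets how many ribosomes an mRNA can hold, and it moved with the change across all genes. When the 14675 tested genes with a coding sequence in GENCODE M21 (91.2%) were cut into 10 groups by length, the median change ran from -1.12 at 139 codons to 0.5 at 1518 codons. Each of the 10 genes was therefore set beside the 500 tested genes nearest to it in longest coding sequence. Krt17 (433 codons) stood above 99.6% of its neighbours in length, whose median was 0.077. Krt15 (456 codons) stood above 95.8% (median 0.16), Icam1 (537) above 92.8% (median 0.19) and Krt5 (580) above 91.8% (median 0.26). Trp63 (680 codons) stood above 77.8%, Bcam (622) above 77% and Itgb4 (1818) above 75.2%. The principal transcripts of Trp63 and Itgb4, whose start codons are shown above, are shorter, at 586 and 1802 codons. Neighbours at those lengths were not compared, and the length-removed fit below also used the longest coding sequence. Krt14 (484 codons) stood above 47.6%, beside a median of 0.18, Egfr (1210) above 45%, beside 0.48, and Cav1 (178) above 58.6%, beside -0.87. With the length trend removed from all genes, the median change of the 10 genes was 0.40. In that fit the calls of Egfr (-0.067, adjusted p = 0.69), Itgb4 (0.21, 0.253) and Cav1 (0.061, 0.699) were lost, and Egfr and Cav1 changed sign. Krt5, Krt15, Krt17, Trp63, Bcam and Icam1 kept their calls on the average of both genotypes. Within WT the calls of Krt5 (0.55, adjusted p = 0.0587), Icam1 (0.55, 0.0824), Itgb4 (0.27, 0.327) and Cav1 (0.054, 0.827) were lost, and within cKO those of Trp63 (0.33, 0.119) and Cav1 (0.067, 0.782).

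**Figure D3:**
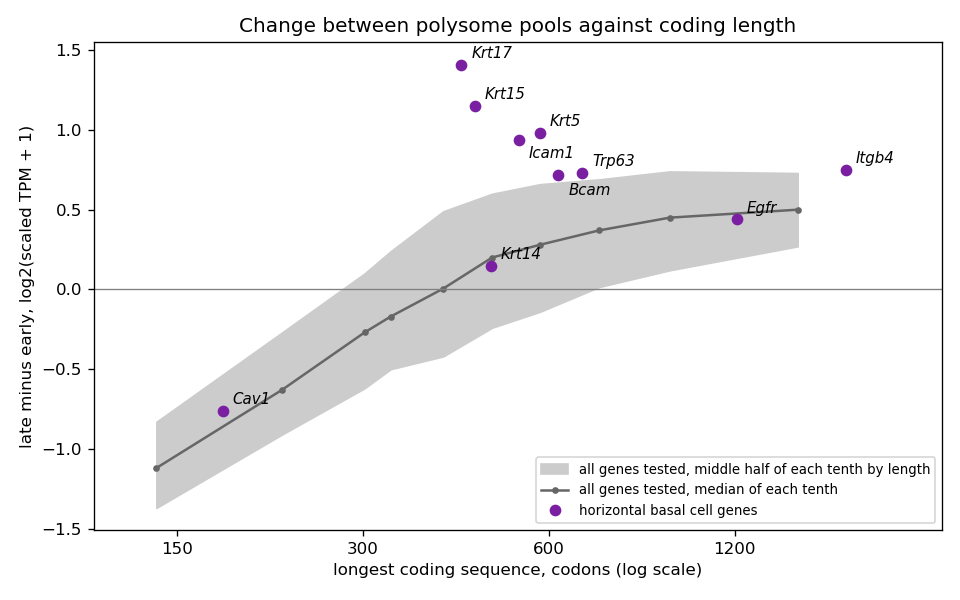
Late minus early change (vertical axis, log2(scaled TPM + 1)) against longest coding sequence (horizontal axis, codons, log scale); the grey line and band give the median and middle 50% of all tested genes in 10 groups by length, and purple points are the 10 genes. Krt17, Krt15, Icam1 and Krt5 lie farthest above the band, while Cav1, Krt14 and Egfr lie within it.

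Genes that work with these markers were counted in the same comparison, where 34.3% of all genes were higher and 34.6% lower. These shares are not matched for coding length, and the longest of the 10 groups by length had a median of 0.5. Except for the injury genes, the part of coding length in the list counts here and below was not tested. Of 13 hemidesmosome and laminin adhesion genes, 8 were higher in late polysomes and 0 lower, with a median of 0.52; Hspg2, a basement membrane proteoglycan, was at 0.36 (adjusted p = 0.0551, and 0.0114 with the lysate as a block). Itgb1, the integrin β1 chain, rose by 0.60 (adjusted p = 0.00119) and Nid1, a basement membrane linker, by 0.58 (0.0117). With the length trend removed these 2 were at 0.20 and 0.074 and did not pass (adjusted p = 0.0946 and 0.647). Of 16 tested desmosome and p63-regulated epithelial genes (17 listed), 14 were higher and 1, Perp, a desmosomal gene under p63, was lower (-0.71), with a median of 0.67. Jup, plakoglobin, rose by 1.18 and Cdh1, E-cadherin, by 1.16.

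Receptors, ligands and regulators of the Egfr family moved both ways, at rates near the shares of all genes. Of 12 tested genes (15 listed), 5 were higher (34.3% of all genes were) and 5 lower (34.6%), with a median of 0.057. The higher ones were the receptors Erbb2 (1.39) and Erbb3 (1.18), the feedback inhibitor Lrig1 (0.79), the ligand Hbegf (0.41) and the ubiquitin ligase Cbl (0.40). The lower ones were the ligands Tgfa (-0.97), Areg (-0.83), Btc (-0.73) and Nrg1 (-0.54), and the adaptor Grb2 (-0.50). With the length trend removed Grb2 was at 0.10. The part of coding length in the falls of the ligands was not tested. Of 15 Notch pathway genes, 11 were higher and 1, the feedback gene Nrarp, was lower (-0.93), with a median of 0.44. Examples are the targets Hey1 (0.35) and Hes1 (0.53) and the inhibitor Numb (0.41, and 0.084 without a call when the length trend was removed).

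Genes that horizontal basal cells switch on after injury were counted next. Of 12 listed, 11 were in the table and 7 were tested, of which 1 was higher (34.3% of all genes were) and 5 lower (34.6%), with a median of -0.84. Ecm1, an extracellular matrix gene, rose by 1.25. Dmkn (-1.46), Ly6d (-1.40), Hopx (-1.25), Sbsn (-0.84) and Sprr1a (-0.44) were lower, and Emp1, a membrane protein, was at -0.027 (adjusted p = 0.859). With the length trend removed only Dmkn (-1.67) and Sbsn (-1.19) of these 7 were called lower. Ecm1 (1), Emp1 (0.90) and Sprr1a (0.58) were called higher there, and Hopx (0.26) and Ly6d (-0.28) did not pass. Of 9 tested keratins outside the 10 genes (15 listed), the simple-epithelial Krt19 (1.47), Krt18 (1.22), Krt8 (1.22) and Krt7 (0.98) were higher, Krt10 was lower (-1.51), and the median was 0.24. Krt23 was at 0.12 (adjusted p = 0.258), and at 0.24 and past the threshold with TPM as deposited.

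Genes of the caveola coat also moved both ways. Of 8 tested genes (9 listed), 5 were higher (34.3% of all genes were) and 2 lower (34.6%), with a median of 0.81. The coat proteins Ptrf (1.46) and Sdpr (1.06), the membrane-bending Pacsin2 (0.90) and Pacsin3 (0.73), and Ehd2 (0.90) were higher, while Cav2 (-1.25), the partner of caveolin 1, and Prkcdbp (-0.46) were lower. Of 9 tested genes of Icam1 partners and related adhesion (12 listed), 5 were higher and 0 lower, with a median of 0.44. These were the leukocyte integrins Itgb2 (0.79) and Itgal (0.53), the relative Icam2 (0.60), and the NF-κB subunits Nfkb1 (0.47) and Rela (0.44), while Nfkbia was at 0.22 (adjusted p = 0.115). With the length trend removed Nfkb1 (0.019) and Rela (0.19) did not pass and Nfkbia did (0.39, adjusted p = 0.0114). Perp, Nrarp, the genes named for the Egfr family other than Erbb3, Lrig1 and Grb2, and the further members of the injury, keratin, caveola and Icam1 lists were named after their values were seen. The part of coding length in the falls of Perp, Nrarp, Krt10 and Cav2 was not tested either.

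Several of the 10 genes are not exclusive to horizontal basal cells, and markers of other cells moved between the pools too. Beside the counts below, 34.3% of all genes were higher and 34.6% lower. The summed level of the 10 genes was 125 to 158 TPM in early and 231 to 251 TPM in late libraries. Summed over 9 markers, sustentacular cells ran from 6630 to 8130 TPM early and from 11400 to 13200 late, with 8 of 9 higher and 1 lower. The lower one, Cbr2 (-0.51), was a large part of the sum, at 4030 to 4440 TPM early and 2740 to 3940 late. The 6 Bowman gland markers ran from 3820 to 8170 TPM early and from 11000 to 18800 late, with 6 of 6 higher. Most of that sum was Bpifb9b, at 2860 to 6410 TPM early and 8400 to 14900 late. Of 7 tested respiratory markers (8 listed) 2 were higher and 3 lower, with sums of 2660 to 4130 TPM early and 6620 to 9670 late. Most of these sums was the secreted Bpifa1, at 2220 to 3720 TPM early and 6330 to 9370 late. The lower ones were Foxj1 (-0.51), Ccdc153 (-1.45) and Tff2 (-1.73). Globose basal and neurogenic markers, 9 in number, summed to between 399 and 449 TPM early and between 583 and 604 late, with 6 higher and 0 lower. For cells that also express Cav1, 9 endothelial markers summed to between 145 and 182 TPM early and between 210 and 228 late (6 higher, 1 lower). The 6 smooth muscle and pericyte markers ran from 1050 to 1200 TPM early and from 1510 to 1790 late (5 higher, 0 lower), and the 6 fibroblast markers from 7960 to 13400 early and from 14400 to 18900 late (4 higher, 0 lower).

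Neuronal, glial and immune markers were summed in the same way, and their counts stand beside the same 34.3% higher and 34.6% lower. The 8 mature olfactory neuron markers summed to between 10100 and 12300 TPM early and between 7080 and 8600 late, with 5 higher and 3 lower. Markers of immature neurons, 6 in number, ran from 1820 to 2090 TPM early and from 2220 to 2700 late (3 higher, 2 lower). The 6 ensheathing glia markers ran from 603 to 854 TPM early and from 588 to 850 late (3 higher, 2 lower), and the 8 leukocyte markers from 358 to 429 early and from 344 to 444 late (2 higher, 2 lower). No list held a marker at 0 in all libraries. The part of these cells in the levels of the 10 genes was not tested.

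Mex3a cKO was then compared with WT, which asks whether the polysome levels of these genes differ between the genotypes in whole tissue. Whether horizontal basal cells express Mex3a, or lost it in cKO mice, was not tested. Mex3a itself changed by -2.55 in early polysomes (SE 0.18, adjusted p = 0.00459) and by -2.80 in late ones (SE 0.18, adjusted p = 0.00282), so the cKO libraries were lower by more than the spread between replicates. The early call was lost without WT early replicate 1 (adjusted p = 0.0776) and the late call without WT late replicate 1 (0.0908) or 2 (0.0962). None of the 10 genes passed the test in early polysomes (0 of 10; 0.0435% of all genes), in late polysomes (0 of 10; 0.0124%), or on the mean of early and late values per lysate (0 of 10; 0.00621%). By limma 0 of 10 also had an unadjusted p under 0.05 in each of these, where 6.64%, 9.36% and 11.3% of all genes did. Voom on the inferred reads called 0 of 10 in each as well, with 1 unadjusted p under 0.05 in early polysomes and 0 in the others. The 4 libraries of a pool enter each comparison of that pool and also the late against early comparisons.

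In early polysomes Krt15 had the largest difference, at 0.60 (95% interval -0.028 to 1.22, adjusted p = 0.761). In late ones Icam1 had the largest, at 0.33 (-0.23 to 0.90, adjusted p = 0.698), and Krt15 was at 0.25 (-0.37 to 0.87, adjusted p = 0.805). Without WT early replicate 2 the early value was 0.32 (adjusted p = 0.844), and the other 9 genes lay between -0.47 (Krt5) and 0.15 (Cav1) in early polysomes, none called. On lysate means Krt15 was at 0.42 (-0.11 to 0.95, adjusted p = 0.51). The intervals for Krt5 (-0.51 to 0.35), Krt14 (-0.35 to 0.21) and Krt17 (-0.46 to 0.21) bound what differences these 2 lysates per genotype leave possible. Trp63 was at -0.11 (-0.41 to 0.19) and Egfr at -0.013 (-0.43 to 0.40). Among the adhesion genes Itgb4 was at 0.17 (-0.31 to 0.64), Icam1 at 0.15 (-0.25 to 0.55) and Bcam at 0.058 (-0.12 to 0.24), the narrowest interval of the 10. Cav1 was at 0.06 (-0.24 to 0.36). The median of the 10 genes was -0.007 in early polysomes, 0.062 in late ones and 0.022 on lysate means, where all genes had medians of 0.0054, -0.00066 and 0.0014.

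Groups of 2 against 2 often separate without passing the test. After scaling, cKO and WT libraries did not overlap in early polysomes for 1 of 10 genes, Krt15, against 37.1% of all genes. In late polysomes this held for 3 of 10, with Icam1 and Bcam above and Krt14 below WT, against 40.7%. Lysate means were apart for 0 of 10, against 43.6%.

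**Figure D4:**
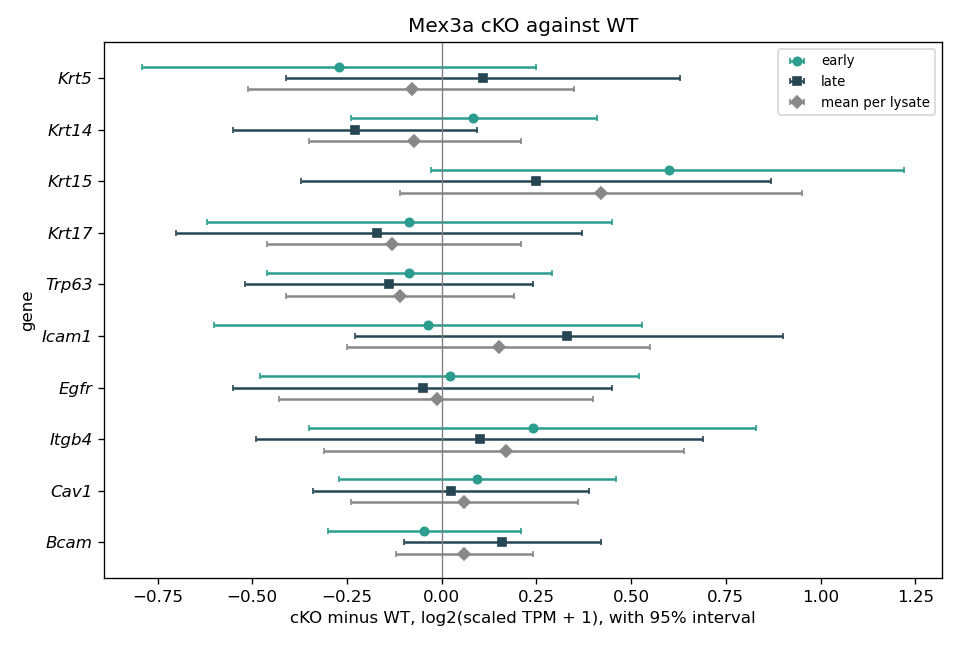
Mex3a cKO minus WT (horizontal axis, log2(scaled TPM + 1)) for each gene in early polysomes (teal circles), late polysomes (dark squares) and on the mean of each lysate (grey diamonds), with 95% intervals. Every interval crosses 0, and the Krt15 value in early polysomes, 0.60, lies farthest from it.

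Whether the late against early change itself differed between genotypes was tested by their interaction, which 0 of 10 genes passed (0.00621% of all genes). By limma 0 of 10 also had an unadjusted p under 0.05, against 2.85% of all genes, and voom called 0 of 10 with or without adjustment. The largest differences, cKO minus WT, were 0.38 for Krt5 (95% interval -0.36 to 1.12), 0.37 for Icam1 (-0.43 to 1.17), -0.35 for Krt15 (-1.23 to 0.54) and -0.31 for Krt14 (-0.77 to 0.14). Without WT early replicate 2 these were 0.58, 0.70, -0.067 and -0.27. Intervals of this width include differences as large as several of the late against early changes. None of the listed partner and marker genes passed in the genotype or interaction comparisons.

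Genes whose levels followed Krt5 and Trp63 most closely over the 8 libraries were ranked by Pearson's r of log2 levels among 12316 genes with a mean of at least 5 TPM. For Krt5 the closest were Cyp2a5 (r = 0.9972), Acsm4 (0.9958), Pon1 (0.9953), Cyp1a1 (0.9951) and Por (0.9937), and 872 candidates had an r above 0.95. Cyp2a5 is also in the list of sustentacular markers. Cyp2a5 was at 2050 and 1420 TPM early and 4230 and 3920 late in WT, and at 1860 and 1000 early and 4680 and 3930 late in cKO. For Trp63 the closest were Mybbp1a (0.9959), Ube3a (0.9955) and Emc1 (0.9943), among 1562 candidates above 0.95. The 8 points are 4 early and 4 late libraries of 4 lysates and share those pools and lysates, so r is a description and no p is given.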

How the data were processed

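Values are transcripts per 1000000 (TPM), as the authors deposited them, for 21765 symbols in 8 polysome libraries. Reads had gone through FastQC, cutadapt, STAR and DESeq2 with the mm10 build, per the submitters' processing notes; the counting step and its annotation are not given in the sources used here. The Cre line and 1 gene of the named-gene rule are not reported here. TPM states no depth, so whole reads were inferred from its steps (19783 genes above 0 in at least 2 libraries, 100% whole within 0.001).

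Libraries were brought to one scale with median-ratio factors of 0.931 to 1.06. The log2 of scaled TPM plus 1 was fitted over all 4 groups with limma 3.58.1 in R 4.3.3, with a mean-variance trend, for the 16097 genes of mean TPM 1 or more. Tests were two-sided, and Benjamini-Hochberg adjusted p-values under 0.05 were called. Contrasts were late against early, cKO against WT, and their interaction; genotype was also fitted on the mean of each lysate. The fits other than the interaction were tried on simulated data with independent libraries, in which chosen genes were only raised. That setting is simpler than these data.

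Early and late libraries of a number share a lysate name, so lysate was a block in an alternative fit. Deviations of paired libraries correlated at 0.0862 in WT and 0.0502 in cKO. Alternatives were other pseudocounts, filters and scalings, no trend, voom, blocks, the 4 libraries compared, coding length removed, and each library left out. Genes and lists were chosen with earlier results of these data known. Named were all 10 genes, the 3 genes of highest mean TPM in each functional list, and the 5 and 3 genes most like Krt5 and Trp63. GENCODE M21 on GRCm38 held 20905 of the symbols. Figures used matplotlib 3.10.9.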

Additional observations from a re-analysis of the deposited data

How the results depend on the processing

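Of 25 settings tried, 18 were run for cKO against WT early and 18 late, 14 on lysate means and 17 for the interaction. No genotype or interaction fit called any of the 10 genes, and 61 sign changes fell among values that no fit called. Late against early, calls were 9 on average (8 to 9 with 1 library left out), 8 in WT (5 to 9; 4 with the length trend removed) and 7 in cKO (5 to 8). With the length trend removed Cav1 was at 0.061 on average, 0.054 in WT and 0.067 in cKO, Egfr at -0.067, Grb2 at 0.10, Hopx at 0.26 and Emp1 at 0.90, and the median of the 10 genes at 0.40, 0.39 and 0.41. Leaving out a library, all-gene calls ran from 9979 to 10784 on average, 5817 (without WT early replicate 2) to 8977 in WT and 6866 to 9074 in cKO.

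All-gene genotype calls were few and unsteady, and the cause was not tested. Early, 7 became 4 at a mean TPM of 5, 11 without a filter, 12 by voom and 0 (1036 unadjusted) with the 4 libraries compared alone, and 0 to 9 with a library left out. Late, 2 became 1 at a mean TPM of 5, with a pseudocount of 0.1 or with 4 libraries, 4 without a filter, 5 with no trend and 15 by voom, and 0 to 13 with a library left out. On lysate means, 1 became 0 without a filter (2115 unadjusted) or trend (1674), 34 with lysate as a random effect, 58 by voom and 82 with the replicate number as a block, and 1 to 10 with a lysate left out. The interaction's 1 became 0 at a mean TPM of 5 (326 unadjusted) or by voom (396), 6 without a filter and 2 with no trend, and 1 to 7 with a library left out.

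WT and cKO lysates share only a replicate number, so that block is a check, not a pairing by design; deviations of same-numbered libraries correlated at 0.331 early and 0.142 late. With the lysate block, 9 of 10 genes were called in WT and 8 in cKO, and no other call of the 10 genes changed. Krt17, with 29 to 125 reads per library, and Icam1, with 41 to 118, had the fewest reads of the 10 genes. The part of depth in their spread was not tested.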
